A study of Homo sapiens with 5 samples.

Results

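The BCL2 family decides whether a cell under stress releases cytochrome c from its mitochondria and dies by apoptosis. Its transcripts were read here from 10 genes picked by symbol: BCL2, BCL2L1, MCL1, BAK1, BAD, BID, BCL2L11, PMAIP1, BIK and BMF. All 10 had a row with reads in each of the 5 libraries, among 19716 genes with a read in at least 1 library. Their rows were found by symbol, without a threshold on any value, but the 10 symbols had been listed with earlier results of these data known.

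The libraries came from HEK293T, a line from human embryonic kidney with the large T antigen of SV40, a protein that binds p53. HEK293 cells also hold the adenovirus E1B region, a product of which is a viral relative of BCL2. In 4 groups the cells received 5 sgRNAs directed at uPA, the urokinase gene PLAU, together with 1 of 4 fusions. They are named dCas9-BFP-DNMT1, dCas9-BFP-DNMT3A and, with the other partners, dCas9-BFP-DNMT3B and dCas9-BFP-EGFP. These are fusions of nuclease-dead Cas9 and a blue fluorescent protein with the catalytic domain of a DNA methyltransferase, or with EGFP, which methylates nothing. DNMT1 is the maintenance enzyme, and DNMT3A and DNMT3B methylate unmethylated DNA. At the uPA promoter the authors found significantly higher methylation than in controls with the DNMT3A and DNMT3B fusions, not with DNMT1 or EGFP. For this reason DNMT3A and DNMT3B were also compared with DNMT1 and EGFP. The fifth group received pUC19, a plasmid with neither dCas9 nor sgRNA. Every group was HEK293T cells given 1 ug of plasmid and collected 48 h later, and as each group was 1 library, no difference can be checked against replicates. The fusions ran from a PGK promoter, and the EGFP fusion shares the guides and dCas9 but lacks a methyltransferase. A comparison with pUC19 therefore changes the fusion protein, the guides and the expression of a large transgene together.

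The cells were sorted for BFP and for exclusion of propidium iodide, a dye that enters dead cells, so cells already dead had been removed before RNA was taken. It is unclear whether the pUC19 cells, which carry no BFP, were sorted in the same way, and the part of the sort in any difference from pUC19 was not tested. The libraries held between 26250000 (EGFP fusion) and 36140000 (pUC19) reads assigned to genes, rounded to 10000, and no member had fewer than 11 reads in any of them. PLAU, the targeted gene, had 6 reads in the DNMT1 fusion library, 6 with DNMT3A, 1 with DNMT3B, 4 with EGFP and 106 with pUC19. VIM, KRT8, KRT18, NEFL and NEFM, which HEK293T cells express, lay at 28.9 TPM (transcript level per length, scaled to a fixed sum in each library) or more in all 5 libraries. NEFL and NEFM lay at 28.9 to 35.6 and 34.3 to 60.2 TPM in the fusion libraries and at 90.7 and 193 TPM in pUC19, and so were lower in all 4, as BCL2, BCL2L11 and PMAIP1 were below, and their part in these results was not tested. Of the markers that they should lack, PTPRC, ALB, MYH7 and HBB lay at 0.430 TPM or less.

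The family works by binding within itself. BCL2, BCL2L1 (Bcl-xL) and MCL1 are anti-apoptotic and hold the other members. BAK1, like its relative BAX, is an effector that opens pores in the outer mitochondrial membrane. The BH3-only proteins BAD, BID, BCL2L11 (BIM), PMAIP1 (NOXA), BIK and BMF are sensors of stress: each binds anti-apoptotic members through its BH3 helix, and BID and BCL2L11 can also activate BAK and BAX. Splicing of BCL2L1 can give the pro-apoptotic Bcl-xS, and MCL1 and BCL2L11 also have isoforms of different activity, which counts per gene cannot separate.

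The 5 guides are shown because they were present in all 4 fusion groups and in no control cell. Each is given 5′ to 3′ with its 10 bases next to the PAM in capitals, and each matched PLAU on chromosome 10 of GRCh37 at full length, followed by an NGG.

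uPA-T1: gtgagcgttgCGGAAGCACG
uPA-T2: gagccgggcgGGAGAGGGAG
uPA-T3: gagtcaaggcGCCCCGTCCC
uPA-T4: gcccggggatCTCAGGACCG
uPA-T5: gggacaggtgGACCCTGGCC

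They lay between chr10:75670761-75670780 (uPA-T1, plus strand) and chr10:75671093-75671112 (uPA-T3, plus strand). The authors place these target sites in the uPA promoter. In GENCODE the outermost start of PLAU is at 75668935, so that the sites fall inside that gene record. The promoter windows of the members were searched on both strands for the longest 3′ end of any guide followed by NGG. A window runs from 250 bases before to 50 bases after the start of the gene in RefSeq (GRCh38.p14), and 8 of the 10 members had one. BCL2L1 held the longest match, of 9 bases to uPA-T4, and 0.597% of all 27305 promoter windows held a match of 9 bases or more. That share is for a single window, whereas BCL2L1 was picked as the longest of 8. BCL2L11 and BMF each held 7 bases of uPA-T3, a length reached in 5.88% of all windows. The remaining 5 windows held 4 or 5 bases, and 72.8% of all windows held at least 4. These 3 sites are printed with the matching bases in capitals, the NGG in lower case after them and the unmatched bases in lower case before them.

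BCL2L1: agtgactggcaTCAGGACCGggg
BCL2L11: cccgcgcgcgccgCCGTCCCtgg
BMF: cgtacattcgtgaCCGTCCCtgg

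The BCL2L1 match reads on the opposite strand of the gene, at positions -61 to -53 from its start. The 250 bases before that start (GRCh38.p14, chr20:31723964-31724213, minus strand, printed along the gene) show it in capitals as CGGTCCTGA.

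BCL2L1 promoter: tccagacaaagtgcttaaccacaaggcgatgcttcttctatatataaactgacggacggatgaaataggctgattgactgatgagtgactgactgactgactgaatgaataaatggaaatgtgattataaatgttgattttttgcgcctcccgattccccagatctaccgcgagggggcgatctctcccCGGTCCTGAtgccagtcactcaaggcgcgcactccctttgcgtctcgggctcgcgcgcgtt

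A match of letters is a description and shows neither binding nor methylation, and no methylation data were analysed here. CpG, the dinucleotide that these enzymes methylate, was counted in the same windows. PMAIP1 held 42 CpG, BCL2L11 39, BID 37, BCL2 31, BMF 31, BAD 21, BCL2L1 20 and BAK1 7, and the median window held 14.

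The 10 genes covered a range of levels in the control. In pUC19 cells PMAIP1 was highest at 111 TPM, followed by MCL1 at 72.0, BAK1 at 58.0, BAD at 55.1, BID at 34.3, BCL2L1 at 25.7, BCL2L11 at 20.6, BMF at 5.78, BCL2 at 2.56 and BIK at 0.844 TPM. TPM is per length, so these levels can be set side by side. BCL2 and BIK were thus the least expressed members in the control, BIK with 13 reads. MCL1 was the highest of the anti-apoptotic members BCL2, BCL2L1 and MCL1 in all 5 libraries.

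**Figure D1:**
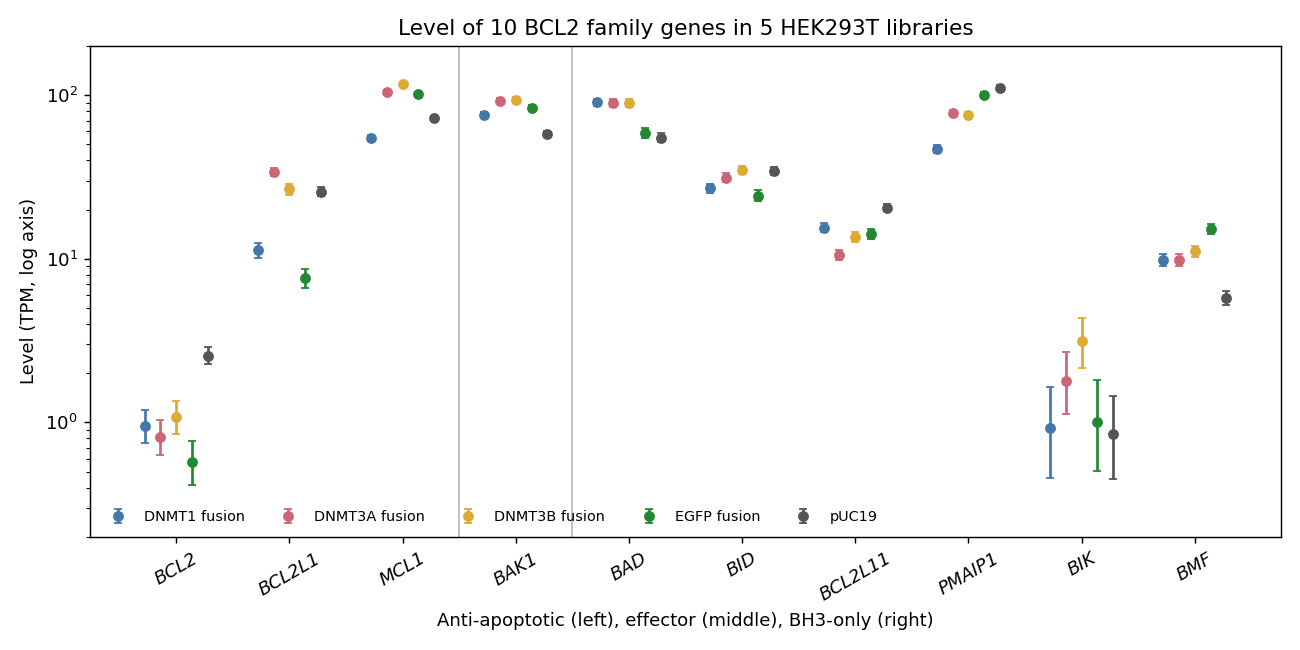
Level of each of the 10 genes (TPM, log axis) in the 5 libraries, 1 point per library, with exact 95% intervals that cover the counting of reads only. BCL2 lies between 0.573 and 1.08 TPM in the fusion libraries and at 2.56 TPM in pUC19, and BCL2L1 is lowest with the DNMT1 and EGFP fusions.

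Each fusion library was compared with pUC19 by an exact conditional binomial test on reads, and a gene was called at a Benjamini-Hochberg adjusted p-value no larger than 0.001 with a change of at least 2-fold in TPM + 0.1. The test compares 2 libraries, not 2 conditions. Called members numbered 3 of 10 with DNMT1 (BCL2, BCL2L1 and PMAIP1, all lower), where 5.16% of all genes tested were called. With DNMT3A it was 1 of 10 (BCL2, lower) against 9.36% of all genes. With DNMT3B it was 2 of 10 (BCL2 lower, BIK higher) against 8.76%. With EGFP it was 3 of 10 (BCL2 and BCL2L1 lower, BMF higher) against 5.7%. The adjusted p-value alone was met by 8 or 9 members in each comparison and by 40.7% to 46.9% of all genes, so with these read numbers it was the 2-fold limit that set the calls. The median log2 change of the 10 members was -0.37, 0.47, 0.37 and -0.03 in the order DNMT1, DNMT3A, DNMT3B and EGFP, and that of all genes tested -0.15, -0.06, -0.05 and -0.003. In the DNMT1 fusion library the median of all genes became -0.03 under TMM scaling, and the same 3 members were called. All 4 comparisons share the single pUC19 library, so a deviation of that library would appear in each of them.

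**Figure D2:**
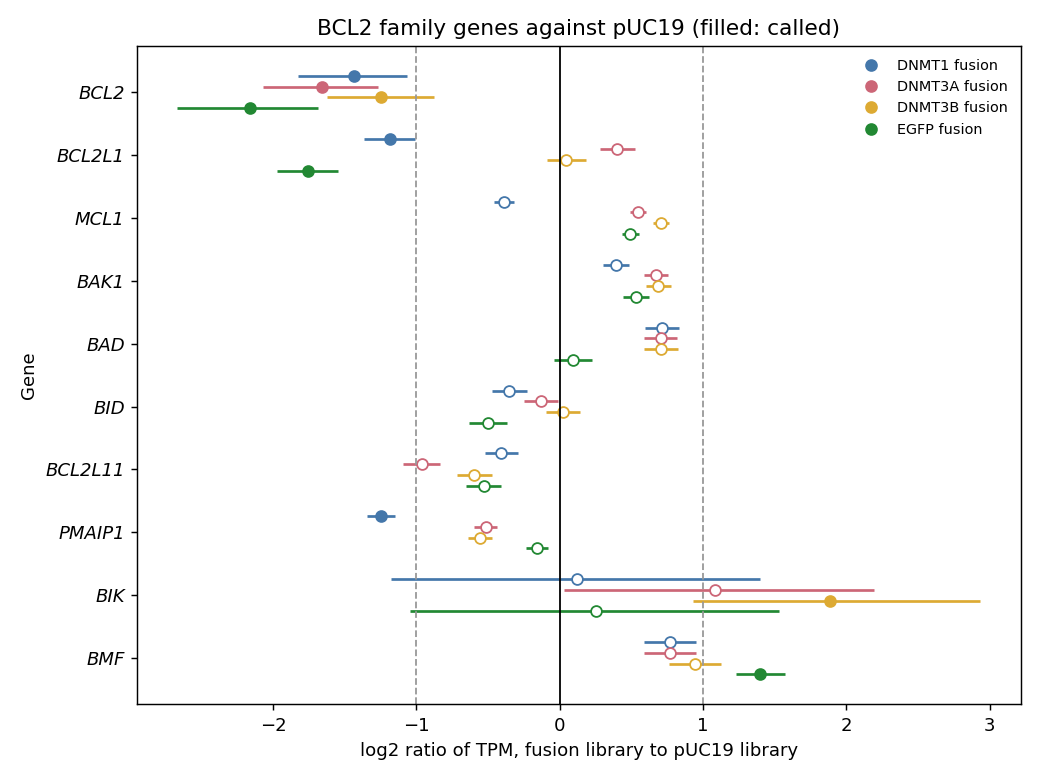
log2 ratio of TPM of each fusion library to pUC19 for the 10 genes, without a pseudocount, with exact 95% intervals that cover the counting of reads only. Filled points were called, dashed lines mark 2-fold, and BCL2 is the gene whose 4 points are all filled.

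BCL2 (chr18:60790579-60987361 on GRCh37, minus strand), the founding anti-apoptotic member, was lower in all 4 fusion libraries. It was read 76 times with DNMT1, 67 with DNMT3A, 79 with DNMT3B, 42 with EGFP and 265 times with pUC19, which is 0.946, 0.810, 1.08, 0.573 and 2.56 TPM. None of the fusion libraries reached the control, and the interval of the EGFP library (0.413 to 0.774 TPM) overlapped those of DNMT1 and DNMT3A but not that of DNMT3B (0.855 to 1.35 TPM). In bulk RNA, fewer cells with the transcript and less transcript per cell cannot be told apart.

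The log2 change of BCL2 was -1.35 with DNMT1, -1.55 with DNMT3A, -1.17 with DNMT3B and, for EGFP, -1.98, all called by the exact test with an adjusted p-value of 6.06e-14 or less. The lowest level was in the library of the fusion without a methyltransferase, but none of the direct tests between fusions called BCL2, with log2 differences from EGFP of 0.64, 0.44 and 0.81 for DNMT1, DNMT3A and DNMT3B. Of all 19716 genes, 229 (1.16%) were called lower in all 4. With a pseudocount of 1 TPM, which weighs heavily on a gene of this level, the change with DNMT1, DNMT3A and DNMT3B was between -0.77 and -0.98, and BCL2 was called with EGFP only. The edgeR quasi-likelihood fit of the 4 fusions against pUC19, where the spread is that between fusions, gave -1.53 (SE 0.356) with an adjusted p-value of 0.0861. DESeq2 gave the same size with an adjusted p-value of 0.0143. In that edgeR fit 0 of the 10 members passed an adjusted p-value of 0.05, and 0.737% of all genes did. An unadjusted p under 0.05 was met by 3 members (BCL2, BAK1 and BMF). The share of all genes under that unadjusted limit was not computed, so the 3 cannot be judged against it.

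BCL2L1 (chr20:30252255-30311792, minus strand), which encodes Bcl-xL, separated the fusions from each other. It had 360 reads with DNMT1, 1113 with DNMT3A, 770 with DNMT3B, 221 with EGFP and 1055 with pUC19, or 11.3, 33.9, 26.6, 7.60 and 25.7 TPM. The DNMT3A and DNMT3B libraries lay at or above the control and the DNMT1 and EGFP libraries far below it. The intervals of the 5 libraries overlapped only between DNMT3B and pUC19.

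Against pUC19, BCL2L1 changed by -1.18 (log2) with DNMT1 and -1.74 with EGFP, both called, and by 0.40 with DNMT3A and 0.05 with DNMT3B, neither called. The direct exact tests between fusions gave 2.14 for DNMT3A against EGFP (4.42-fold, adjusted p-value 3.17e-120) and 1.79 for DNMT3B against EGFP (3.46-fold, adjusted p-value 3.73e-66). BCL2L1 was the 1 member called in each of these, where 3.97% and 3.5% of all genes were called. For DNMT3A against DNMT3B it was 0.35, with a 95% counting interval of 0.22 to 0.49, and for DNMT1 against EGFP 0.56, with 0.33 to 0.82. The edgeR fit of DNMT3A and DNMT3B against DNMT1 and EGFP gave 1.61 (SE 0.235, adjusted p-value 0.00687, 2 libraries against 2). BCL2L1 was the 1 member of 10 that passed there, and 11.0% of all genes did. Without the DNMT3A library, the difference was 1.42 with an adjusted p-value of 0.0984, where DNMT3B was alone on its side and was assumed to vary like the others. Without the EGFP, DNMT1 or DNMT3B library it was 1.30, 2.01 and 1.78, and it passed each time.

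The reads of BCL2L1 covered 91.4% to 99.7% of its transcript in the 5 libraries. ABALON, an annotated antisense RNA with no row in the tables, shares 1735 exon bases with it. Whether counting used strand is not given in the sources used here, and without strand their reads cannot be told apart. The same limit holds for BCL2L11, which shares 727 exon bases with MIR4435-2HG, and for BMF, which shares 461 with BMF-AS1. ADAMTSL4-AS1 shares 328 exon bases with MCL1 on the same strand. None of these RNAs has a row.

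MCL1 (chr1:150533371-150552214, minus strand), a short-lived anti-apoptotic protein whose level is set by its synthesis and destruction, was not called in any comparison with pUC19. Its 55.04, 105, 117, 101 and 72.0 TPM (DNMT1, DNMT3A, DNMT3B, EGFP, pUC19) came from 2799 to 5496 reads. The DNMT1 library lay below the control, by 0.39 on the log2 scale, and the other three above it, by 0.54, 0.70 and 0.49. DNMT1 against EGFP differed by -0.88, 1.84-fold, which is short of 2-fold.

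Summed over the 3 anti-apoptotic genes, the level was 67.3 TPM with DNMT1, 140 with DNMT3A, 145 with DNMT3B, 110 with EGFP and 100.3 with pUC19. MCL1 makes up most of this sum in each library. The anti-apoptotic genes held 20.1% of the TPM of the 10 members with DNMT1 and between 26.0% and 31.1% in the other libraries. These sums and shares depend on which genes are listed. BAX, an effector outside the 10, lay at 75.4 to 99.0 TPM in the 5 libraries.

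**Figure D3:**
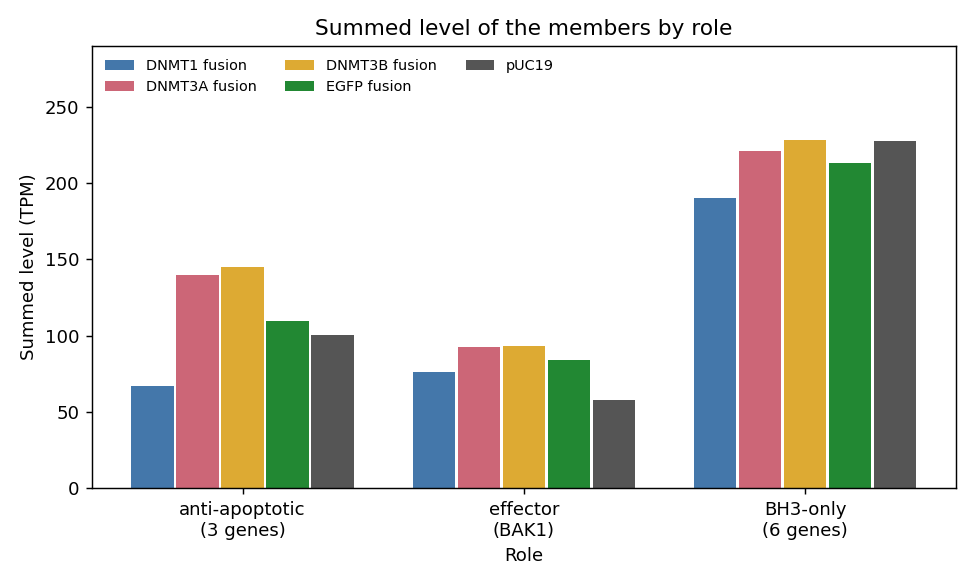
Summed TPM of the 3 anti-apoptotic genes, of the effector BAK1 and of the 6 BH3-only genes in each of the 5 libraries. The anti-apoptotic sum is lowest with the DNMT1 fusion (67.3 TPM) and the BH3-only sum stays between 191 and 228 TPM.

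BAK1 (chr6:33540324-33548070, minus strand), the effector, was above the control in every fusion library without reaching 2-fold. Its levels were 76.1 TPM with DNMT1, 92.5 with DNMT3A, 93.4 with DNMT3B, 83.8 with EGFP and 58.0 with pUC19. No fusion interval met that of pUC19, and the largest log2 change was 0.69, with DNMT3B. The edgeR fit of the 4 fusions gave 0.63 (SE 0.2) with an adjusted p-value of 0.158. Of 14477 genes with at least 100 reads in all, 23.6% were above pUC19 in all 4 fusion libraries and 32.7% below it in all 4. Processed pseudogenes (BAK1P1 on chromosome 20 and BAK1P2 on chromosome 11) have no row of their own, and reads from them could be counted on BAK1.

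Of the 6 BH3-only genes, PMAIP1, BIK and BMF were each called in 1 fusion library, and BAD, BID and BCL2L11 in none. Among all 19716 genes, 14.8% were called in at least 1 fusion library. The summed level of the 6 BH3-only genes was 191 TPM with DNMT1, 221 with DNMT3A, 228 with DNMT3B, 213 with EGFP and 228 with pUC19.

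PMAIP1 (chr18:57567228-57571537, plus strand), which encodes NOXA, a p53 target that binds MCL1, had the highest level of the 6 in the control. Its reads were 1137 with DNMT1, 1937 with DNMT3A, 1666 with DNMT3B, 2199 with EGFP and 3469 with pUC19, which is 47.0, 77.8, 75.7, 99.7 and 111 TPM. All 4 fusion libraries were lower than pUC19, DNMT1 the most, and the intervals overlapped between DNMT3A and DNMT3B alone. The log2 change with DNMT1 was -1.24 and was called. In the other three fusion libraries it was -0.52, -0.56 and -0.16. DNMT1 against EGFP differed by -1.08 (adjusted p-value 7.4e-88 in the exact test) and was the 1 member called in that comparison, where 1.44% of all genes were called. With TMM scaling that difference was -0.94, below 2-fold, and not called.

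The covered part of PMAIP1 was smaller than its reads would give in like genes. Its reads covered 57.4% of its transcript with DNMT1, 72.2% with DNMT3A, 56.9% with DNMT3B, 57.1% with EGFP and 72.9% with pUC19, although it was among the members with the most reads. Genes within 1.2 times its length and 1.5 times its reads in the same library had a median of 93.2% to 95.2%, and 0.85% to 3.11% of them lay below it. Its transcript has a GC content of 36.6%, lower than in all but 4.01% of genes. Across genes with at least 100 reads in both libraries (10819 to 10943 genes, which share each library's depth), the log2 ratio to pUC19 followed GC content with a Spearman rho of 0.327 with DNMT1, 0.306 with DNMT3A, 0.271 with DNMT3B and, for EGFP, 0.0616. With each gene scaled by its library's trend on GC content and length, PMAIP1 changed by -1.005 with DNMT1, -0.23 with DNMT3A, -0.29 with DNMT3B and, for EGFP, 0.03, and the call with DNMT1 remained.

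**Figure D4:**
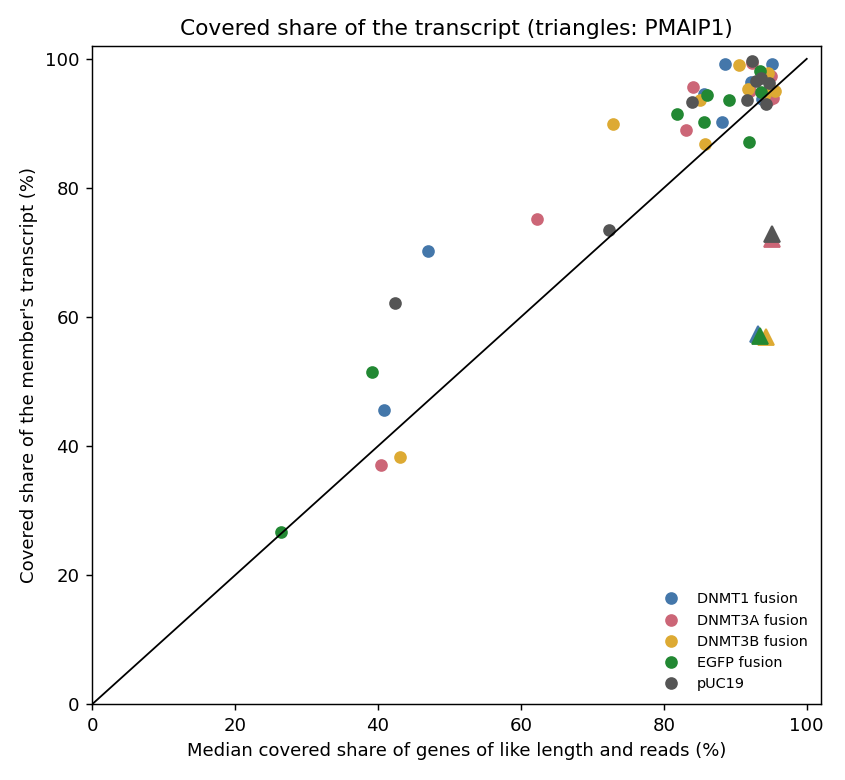
Share of each member's transcript covered by reads (percent) against the median share in genes of like length and reads in the same library, for the 5 libraries, with the line of equality. The 5 triangles of PMAIP1 lie at 56.9% to 72.9%, below their like genes at 93.2% to 95.2%.

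BAD (chr11:64037302-64052176, minus strand), a BH3-only protein that growth factor signalling holds inactive by phosphorylation, lay at like levels in the libraries of the methyltransferase fusions and lower in the others. Its levels were 90.3 TPM with DNMT1, 89.9 with both DNMT3A and DNMT3B, 58.8 with EGFP and 55.1 with pUC19. The DNMT1, DNMT3A and DNMT3B libraries were nearly equal and their intervals overlapped, as did those of EGFP and pUC19, and the groups of intervals did not meet. The log2 change from pUC19 was 0.71, 0.71, 0.71 and 0.09. Against the EGFP fusion it was 0.62, 0.61 and 0.61, and none of these reached 2-fold. BAD has the highest transcript GC content of the members, 66.3%, above 97.5% of genes. Scaled for GC content and length, its differences from EGFP were 0.20, 0.22 and 0.33. The exons of BAD share 404 bases with GPR137 on the opposite strand, which lay between 34.5 and 39.97 TPM in the 5 libraries.

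BID (chr22:18216904-18257536, minus strand), which caspase-8 cleaves to carry the death receptor signal to mitochondria, had 26.9, 31.3, 34.9, 24.3 and 34.3 TPM (DNMT1, DNMT3A, DNMT3B, EGFP, pUC19). EGFP was the lowest and DNMT3B the highest, next to the control. The log2 changes from pUC19 lay between -0.50 and 0.03.

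BCL2L11 (chr2:111876955-111926021, plus strand) encodes BIM, which binds all the anti-apoptotic members. It was below the control in each fusion library, at 15.5, 10.5, 13.6 and 14.2 TPM against 20.6. No fusion interval met that of pUC19, but these intervals cover counting only. Of 14477 genes with at least 100 reads in all, 32.7% lay below pUC19 in all 4 fusion libraries. In the exact tests 40.7% to 46.9% of all genes met the adjusted p-value alone. The log2 change of BCL2L11 was -0.40 with DNMT1, -0.96 with DNMT3A, -0.59 with DNMT3B and, for EGFP, -0.53. That with DNMT3A was 1.94-fold and so just inside the limit. The edgeR fit gave -0.55 (SE 0.254) with an adjusted p-value of 0.291.

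BIK (chr22:43506756-43525718, plus strand), a BH3-only protein of the endoplasmic reticulum, had few reads. They numbered 11 with DNMT1, 22 with DNMT3A, 34 with DNMT3B, 11 with EGFP and 13 with pUC19, which is 0.920, 1.79, 3.13, 1.01 and 0.844 TPM. DNMT3B was highest, and its interval (2.16 to 4.37 TPM) overlapped that of DNMT3A alone. The log2 change with DNMT3B was 1.77 (adjusted p-value 0.000194, exact test) and was called. Against EGFP it was 1.54, with a 95% counting interval of 0.62 to 2.76 and an adjusted p-value of 0.00324, and was not called.

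BMF (chr15:40380091-40401093, minus strand), a BH3-only protein held at the cytoskeleton until cells detach, was above the control in all 4 fusion libraries. It had 573, 590, 588 and 809 reads in the fusion libraries and 433 with pUC19, or 9.85, 9.85, 11.1, 15.2 and 5.78 TPM. EGFP was the highest and its interval met no other, while those of DNMT1, DNMT3A and DNMT3B overlapped. The log2 change was 0.76 with DNMT1, 0.76 with DNMT3A, 0.93 with DNMT3B and, for EGFP, 1.38, of which the last was called. The edgeR fit of the 4 fusions gave 1.04 (SE 0.294) with an adjusted p-value of 0.127, and DESeq2 gave 0.0177 for the same change.

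Between the DNMT3A and DNMT3B fusions 0 of the 10 members were called by the exact test, where 0.215% of all genes were called. An unadjusted p under 0.05 in the exact test was met by 4 members (BCL2L1, MCL1, BCL2L11 and PMAIP1). How many of all genes met that unadjusted limit was not computed, so the 4 cannot be judged against it. The adjusted p-value alone was met by 2 members and by 14.3% of all genes. The edgeR exact test with an assumed coefficient of variation of 0.2 called 0 members. It called only 0.0161% of all genes, so this 0 says little about the members. The widest counting interval among the 10 was that of BIK, from -1.65 to 0.01, and the narrowest that of MCL1, from -0.22 to -0.11. In the edgeR fit of the DNMT3A and DNMT3B fusions against DNMT1 and EGFP, BIK differed by 1.28 (SE 0.471, adjusted p-value 0.111) and MCL1 by 0.47 (SE 0.207, adjusted p-value 0.167), and the remaining 7 members had adjusted p-values of 0.189 or more.

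The other genes of the pathway were read from lists chosen for their role. Of 13 other BCL2 family genes, 12 had a row and BCL2L10 had none. In this list 0 were called with DNMT1, 1 with DNMT3A, 1 with DNMT3B and, for EGFP, 0. Among all genes tested, 5.16%, 9.36%, 8.76% and 5.7% were called in the same order. The median log2 changes of the list were -0.17, 0.06, -0.18 and 0.02. The gene called in both cases was BOK, a relative of BAX and BAK, named here after its values were seen, at 3.89 TPM with DNMT3A and 3.93 with DNMT3B against 1.55 with pUC19. BAX, the effector that acts beside BAK1, was called in no comparison with pUC19 and is named outside the rule. It had 75.4, 83.6, 83.8, 93.3 and 99.0 TPM (DNMT1, DNMT3A, DNMT3B, EGFP, pUC19), below the control in each fusion library where BAK1 was above it. With EGFP the log2 change of BAX was only -0.08 (adjusted p-value 0.0684, exact test). The edgeR fit of the 4 fusions gave -0.19 (SE 0.2) for BAX. Of 14477 genes with at least 100 reads in all, 32.7% lay below pUC19 in all 4 fusion libraries. In the edgeR fits 0 of the 10 genes of this list that were tested passed. Among all genes, 0.737% passed the fit of the 4 fusions and 11.0% that of DNMT3A and DNMT3B against DNMT1 and EGFP.

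Of 14 genes of the mitochondrial caspase pathway, which act after the pores open, 1 was called in each fusion library, and it was BIRC2 in all 4. Among all genes tested, 5.16% (DNMT1), 9.36% (DNMT3A), 8.76% (DNMT3B) and 5.7% (EGFP) were called. Lower calls in all 4 were made for 1.16% of 19716 genes. BIRC2 encodes cIAP1, a ubiquitin ligase that restrains cell death at the TNF receptor. It had 10.4 TPM with DNMT1, 8.31 with DNMT3A, 8.84 with DNMT3B, 10.6 with EGFP and 22.5 with pUC19, all lower by 1.08 or more on the log2 scale, and its adjusted p-value in the edgeR fit was 0.0558. The median log2 changes of the list were 0.01, 0.08, -0.01 and 0.11. HTRA2, a mitochondrial protease that blocks inhibitors of caspases once released, passed the edgeR fit of DNMT3A and DNMT3B against DNMT1 and EGFP (0.52, SE 0.134, adjusted p-value 0.0400). HTRA2 was the 1 gene that passed there of 13 tested in this list, and 11.0% of all genes did. Its levels were 47.8 and 49.1 TPM with DNMT3A and DNMT3B, 32.4 with DNMT1, 32.9 with EGFP and 29.8 with pUC19.

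Of 10 genes of the death receptor arm, which reaches the BCL2 family through BID, 0 were called with DNMT1, 3 with DNMT3A, 2 with DNMT3B and, for EGFP, 2, all higher. Among all genes tested, 5.16%, 9.36%, 8.76% and 5.7% were called in the same order. The median log2 changes of this list were 0.33, 0.73, 0.73 and 0.53, the highest of the 4 lists in each fusion library, and 0 passed in either edgeR fit. TNFRSF1A, the main TNF receptor, had 56.1, 77.3, 74.9 and 62.2 TPM in the fusion libraries and 30.6 with pUC19, and was called in all but DNMT1. CASP10, an initiator caspase, had 6.73, 8.37, 8.22 and 8.10 TPM against 3.97 and was called in the same 3 libraries.

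Of 11 regulators of the members, 3 were called with DNMT1 (2 higher), 2 with DNMT3A (1 higher), 2 with DNMT3B (1 higher) and 3 with EGFP (2 higher). Among all genes tested, 5.16%, 9.36%, 8.76% and 5.7% were called in the same order. The median log2 changes of the list were 0.05, 0.03, 0.27 and 0.32. DDIT3 encodes CHOP, a stress transcription factor known to repress BCL2 and to induce BCL2L11. It had 78.7 TPM with DNMT1, 54.4 with DNMT3A, 49.1 with DNMT3B, 113 with EGFP and 29.9 with pUC19. It was called higher with DNMT1 and EGFP, and the edgeR fit of DNMT3A and DNMT3B against DNMT1 and EGFP gave -0.93 (SE 0.166, adjusted p-value 0.0111). TRIB3, a pseudokinase induced by CHOP, was called higher in all 4, at 116, 86.9, 84.5 and 96.8 TPM against 36.0.

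MYC, a transcription factor of growth genes that also sensitizes cells to apoptosis, was called lower in all 4 fusion libraries. It had 88.2, 73.8, 65.5 and 75.5 TPM against 387, and was the 1 gene of this list that passed the edgeR fit of the 4 fusions (-2.29, SE 0.202, adjusted p-value 0.00936). USP9X, a deubiquitinase that stabilizes the MCL1 protein, had 99.95 TPM with DNMT1, 70.9 with DNMT3A, 82.7 with DNMT3B, 121 with EGFP and 96.6 with pUC19. It passed the edgeR fit of DNMT3A and DNMT3B against DNMT1 and EGFP, with -0.57 (SE 0.126, adjusted p-value 0.0239). DDIT3 and USP9X were the 2 genes that passed there of 11 in this list, and 11.0% of all genes did.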

How the data were processed

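RNA from 5 libraries of HEK293T cells was analysed, 1 per group, grouped by the sample titles. The authors filtered reads (under 30 nt removed), aligned them with tmap to RefSeq RNA of hg19 (GRCh37) with at most 3 mismatches and kept unique reads. The tmap version is not given in the sources used here. The deposited tables hold a raw read count per gene, TPM made by the authors from counts and lengths, and a coverage in percent that the authors did not define, read here as the covered part of the transcript. Genes missing from a table were set to 0.

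Libraries were compared by an exact conditional binomial test, two-sided, on their totals of reads (scipy 1.17.1, Benjamini-Hochberg over genes with a read in either). Fold changes used TPM + 0.1, whose scale differs from reads per total by at most 0.107 (log2), so that a small difference can fall on either side. Intervals are exact at 95% and, like the floor, cover counting error only. The edgeR fits (version 4.0.16, R 4.3.3) used TMM, filterByExpr and the quasi-likelihood test at an adjusted p-value of 0.05, and their spread is that between constructs. DESeq2 was version 1.42.0. Trends on GC content and length were loess fits (span 0.3), with GC values for 89.25% of genes. The scripts were tested on simulated counts. Positions are from GENCODE v44lift37 and promoters from RefSeq.

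Named genes were the 10 members, list genes called in the same direction in at least 3 of 4 fusions or past an edgeR fit, and PLAU. BOK and BAX fall outside this rule and were named after their values were seen. Members and lists (other BCL2 family, mitochondrial caspase pathway, death receptor arm, regulators of members) were chosen with earlier results of these data known. A further marker chosen for the check of the cell line is not reported here.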

Additional observations from a re-analysis of the deposited data

Results flagged for a closer look

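BCL2L1 was singled out because its change from pUC19 differed between fusions in direct tests. DNMT3A exceeded EGFP by 2.14 and DNMT3B exceeded EGFP by 1.79 (log2, exact tests on 2 libraries each), and the edgeR fit of DNMT3A and DNMT3B against DNMT1 and EGFP gave 1.61. PMAIP1 was singled out because the DNMT1 fusion library lay below the EGFP fusion library by a called difference of -1.08 (log2, exact test). With 1 library per group none of these has a replicate check, and their causes were not tested.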

How the results depend on the processing

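No paired analysis was possible because each group had 1 library. The edgeR exact test with an assumed coefficient of variation of 0.2 called 0 members in every comparison, where the exact test on reads had called 0 to 3, and only 0.0161% to 0.717% of all genes, so this 0 says little about the members. BCL2L1 missed its threshold of 0.001 for DNMT3A against EGFP with an adjusted p-value of 0.00117. In the same test, EGFP against pUC19 gave adjusted p-values of 0.00154 for BCL2 and 0.00619 for BCL2L1. A pseudocount of 1 TPM left 2 members called with DNMT1 (2.84% of all genes), 0 with DNMT3A (6.03%) and 1 with DNMT3B (5.84%), TMM scaling left 0 for DNMT1 against EGFP (1.38%), and an adjusted p-value of at most 0.05 gave 2 for DNMT3B against EGFP (5.68%). DESeq2 called 2 members for the 4 fusions against pUC19 and 977 of 19716 genes (4.96%), where edgeR called 0 members and 118 of 16001 genes (0.737%). Leaving out 1 fusion library at a time gave 0 to 5 members in the edgeR fit of DNMT3A and DNMT3B against DNMT1 and EGFP and 0 in the fit of the 4 fusions. In the former it was 0 without DNMT3A (0.114% of all genes called), 1 without DNMT3B (0.336%), 4 without EGFP (24.7%) and 5 without DNMT1 (22.5%), so the members followed the number of genes called. In those fits a lone library was assumed to vary like the others.

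Some signs turned (log2 differences), and the cause was not tested. Under the assumed variation, DNMT3B against pUC19 gave -0.042 for BCL2L1 and -0.064 for BID, and DNMT3A against DNMT3B gave 0.047 for BAK1. Under TMM scaling BAK1 was at 0.000302 and BIK at 0.00596 for DNMT1 against EGFP, and BAK1 at 0.00232 for DNMT3A against DNMT3B. Scaling for GC content and length, added after seeing the data, gave -0.073 for BCL2L1 with DNMT3B and 0.027 for PMAIP1 with EGFP against pUC19, -0.037 for BAK1 with DNMT3A and -0.0044 with DNMT3B against EGFP, and -0.11 for BAD between DNMT3A and DNMT3B. In the fit of DNMT3A and DNMT3B against DNMT1 and EGFP, leaving out 1 library at a time gave -0.36 to 0.59 for PMAIP1, which passed in opposite directions without DNMT1 (-0.36, adjusted p-value 0.0427) and without EGFP (0.59, 0.00244), -0.13 to 0.73 for BCL2 and -0.13 to 0.63 for BAD (both lowest without EGFP). Of 637 values of single members under the alternatives, 597 kept their sign and their side of the threshold. Part of this was fixed beforehand. The looser p-value limit and the filter on TPM reuse the log2 changes of the main setting, so no sign could turn there. A member not called in the main setting also had no call to lose. The assumed variation removed 12 calls, so the pooled count says little about how firm the calls are. BCL2 and BIK, with 11 to 265 reads, are the members that depth limits most.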
